A study of Homo sapiens with 2 samples.

Results

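HTO2+HTO8 and HTO2+HTO9 are 426 cells sorted as tumour cells, 185 and 241, of the 9083 cell barcodes of 1 pooled single-cell library. They were chosen by measured values: among the cell populations of the pool, these were the pair in which genes of the interferon response and of the tumour necrosis factor (TNF) response were both high. Each cell carried antibody tags (hashtags) that mark its population, mostly as a pair. A barcode was given to its 2 highest hashtags of HTO2 to HTO9 where the second had 20 counts or more and at least 4 times the count of the next one. A cell was kept with 500 detected genes or more if mitochondrial genes held no more than 20% of its UMIs (counted molecules). The UMIs were then summed over each pair and set against 5 populations in which both responses were low, called quiet here: HTO3+HTO5, HTO3+HTO7, HTO3+HTO9, HTO4+HTO6 and HTO4+HTO7, with 907 cells in all. Values of these 5 are given in this order throughout. The sources used here do not say which condition HTO2+HTO8, HTO2+HTO9 or any quiet population received.

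The cells came from tumours of OVCAR5, an established human ovarian carcinoma line that carried an IFNy-sensing reporter, grown in NSG-B2m-/- mice, which lack lymphocytes and MHC class I light chain but keep other host cells. Cytokine was injected into the tumours, digests were hashtagged and pooled, and CFP+ tumour cells were sorted from the pool. The pool description lists 13 tumours: 3 with TNFa at 10 ng/ml for 6 h, 2 with IFNy (interferon gamma) at 100 ng/ml and TNFa at 10 ng/ml for 6 h, 2 with IFNy at 100 ng/ml for 24 h, 1 with IFNy at 100 ng/ml for 48 h, and 5 left unexposed, of which 2 were taken at 6 h, 2 at 24 h and 1 at 48 h. The treatment fields of the gene expression and hashtag libraries each name a single condition, which is at odds with that description. All levels below are CPM, the UMIs of a gene per 1000000 UMIs of the population. Each interval in brackets is an exact 95% one for counting error alone, of UMIs or, for shares of cells, of cells. It takes the counts as independent and leaves out the spread between cells and between tumours. Where a lowest population is set over a highest one, it also leaves out that these were picked from the same counts. There was 1 library, and both the populations and the genes they were chosen by come from the same counts, so no test was made, nothing below supports the choice, and each difference is a description.

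Interferon gamma binds the receptor chains IFNGR1 and IFNGR2, and the kinases JAK1 and JAK2 then activate factors that bind gamma-activated sites (GAS) and induce IRF1, which acts through interferon-stimulated response elements (ISRE). TNF binds TNFRSF1A and releases NF-kB from its inhibitors, so that it binds NF-kB sites of genes for chemokines, adhesion molecules and its own inhibitors. In carcinoma cells, targets of both routes include the CXCR3 ligands CXCL9, CXCL10 and CXCL11, which attract activated T cells.

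The promoters of 6 genes that were high in HTO2+HTO8 and HTO2+HTO9 are shown because they hold matches to the letters of such sites in different mixtures. Each is the 250 bases before the start of transcription, 5′ to 3′ on the strand of the gene, from RefSeq on GRCh38.p14. Capitals mark matches on either strand to the ISRE core GAAANNGAAA, to GAS, TTCNNNGAA, or to NF-kB, GGGANNNNCC. CXCL10 lies at chr4:76023498-76023747, CXCL9 at chr4:76007510-76007759, CXCL11 at chr4:76036071-76036320, GBP1 at chr1:89065209-89065458 and IRF1 at chr5:132490774-132491023, all on the minus strand, and ICAM1 lies at chr19:10270870-10271119 on the plus strand.
CXCL10: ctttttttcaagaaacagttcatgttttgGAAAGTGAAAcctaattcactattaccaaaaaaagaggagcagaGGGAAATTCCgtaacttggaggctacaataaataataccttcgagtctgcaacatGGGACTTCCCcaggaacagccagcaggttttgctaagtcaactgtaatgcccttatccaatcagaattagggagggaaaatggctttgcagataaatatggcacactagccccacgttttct
CXCL9: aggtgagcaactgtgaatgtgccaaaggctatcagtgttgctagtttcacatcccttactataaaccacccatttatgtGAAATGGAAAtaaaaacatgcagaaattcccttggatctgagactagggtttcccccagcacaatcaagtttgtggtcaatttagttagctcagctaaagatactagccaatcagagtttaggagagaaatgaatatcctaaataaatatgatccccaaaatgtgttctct
CXCL11: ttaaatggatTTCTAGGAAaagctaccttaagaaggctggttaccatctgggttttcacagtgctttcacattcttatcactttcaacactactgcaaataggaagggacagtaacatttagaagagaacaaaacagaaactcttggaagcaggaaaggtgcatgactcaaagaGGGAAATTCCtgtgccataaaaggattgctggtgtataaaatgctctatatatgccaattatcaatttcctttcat
GBP1: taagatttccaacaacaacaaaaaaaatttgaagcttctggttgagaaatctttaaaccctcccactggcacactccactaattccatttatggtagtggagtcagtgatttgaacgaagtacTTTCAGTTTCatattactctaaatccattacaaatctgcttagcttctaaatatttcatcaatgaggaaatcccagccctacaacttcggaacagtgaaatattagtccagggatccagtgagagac
IRF1: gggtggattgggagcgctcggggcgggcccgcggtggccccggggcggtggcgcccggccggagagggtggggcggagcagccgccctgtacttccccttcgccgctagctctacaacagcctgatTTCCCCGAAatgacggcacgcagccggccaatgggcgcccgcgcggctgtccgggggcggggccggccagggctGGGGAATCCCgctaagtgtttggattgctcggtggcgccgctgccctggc
ICAM1: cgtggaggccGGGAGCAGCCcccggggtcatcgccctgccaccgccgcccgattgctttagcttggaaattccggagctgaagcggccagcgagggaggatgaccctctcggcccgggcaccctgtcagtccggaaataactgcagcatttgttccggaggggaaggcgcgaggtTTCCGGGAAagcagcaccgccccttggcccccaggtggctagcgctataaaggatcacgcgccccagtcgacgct
CXCL10 had 1 ISRE core match, 221 bases before the start, and 2 NF-kB matches, 177 and 122 bases before it. CXCL9 and GBP1 had an ISRE core match, 171 and 127 bases before the start, and no NF-kB match. CXCL11, IRF1 and ICAM1 each had 1 GAS match (240, 124 and 75 bases before the start) and 1 NF-kB match (76, 50 and 240 bases). None of the marked matches of a promoter overlapped another. Of all 27305 promoters of this length, 3.07% hold the ISRE core, 6.78% the GAS letters and 22.1% the NF-kB letters. A match describes these letters in this window and is no evidence of binding. A site that departs from these letters is not marked, so a promoter without a match may still hold one. Only 207 of the 297 genes called higher below had a promoter in the table (69.7%, under the 80% needed), so shares over that set are void and are not given.

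The 2 populations had 1850271 and 2577430 UMIs, against 1306049 to 2911673 in the quiet ones. Their cells had medians of 9147 and 9431 UMIs, against 8018 to 9450 in quiet populations, and 50.5% and 43.0% of their barcodes passed the cell filter, against 28.3% to 58.2%. The hashtag rule placed 9 or 10 members of each population just inside its limit (a ratio of 4 to 6) and 9 and 12 barcodes just outside it (2 to 4), while the median ratio of members was 27.4 and 23.3. CXCL10 was high on both sides of the mitochondrial limit. It was at 4591 CPM in the 30 HTO2+HTO8 members with 18 to 20% mitochondrial UMIs and at 6323 CPM in the 18 barcodes with 20 to 22%. In HTO2+HTO9 it was at 6748 CPM in 31 members and 5709 CPM in 23 barcodes outside.

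As tumour cells, 95.7% and 90.04% of the 2 populations expressed at least 3 of 8 epithelial markers, against 93.6% to 98.9% in quiet populations. The epithelial markers of a carcinoma were thus present in most cells, though HTO2+HTO9 lay below the quiet range. The summed level of 10 macrophage markers was 62.2 and 66.3 CPM, against 50.8 to 64.9 CPM, and most of it was CD68, CD14 and LYZ, which carcinoma cells can also express. Of that list, TYROBP had 18 and 20 UMIs in 8 and 9 cells, against 0 to 2 UMIs in quiet populations, C1QB and AIF1 had 7 to 12 UMIs, against 0 to 2, and CD163 and FCGR3A were at 0 in all 7 populations. At least 3 of the 10 macrophage markers were found together in 5 and 6 cells, against 0 to 2 cells in quiet populations. T cell markers summed to 8.65 and 23.3 CPM, against 3.83 to 11.9 CPM, mostly IL7R, and endothelial markers summed to 20.0 and 21.3 CPM, against 28.7 to 39.8 CPM. Neutrophil markers summed to 0.540 and 18.2 CPM, against 0 to 0.464 CPM, where 44 of the 46 S100A8 UMIs of HTO2+HTO9 lay in 1 cell. The part of such cells in the results was measured by leaving out the 10 and 20 cells with a UMI of an immune marker (1 to 4 cells in quiet populations): 282 genes were then called higher, 278 of them among the 297 below.

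Of 10918 genes with 50 or more UMIs over the 7 populations, 297 (2.72%) were called higher: the lower of HTO2+HTO8 and HTO2+HTO9 was at least 2-fold above the highest quiet population, whose level was taken as no lower than 3 UMIs. In the other direction 122 genes (1.12%) were called lower, with the higher of the 2 populations at or below 0.5 of the lowest quiet one. With TMM scaling, which resets each total so that most genes centre on no change, the split was 361 higher and 55 lower. Under a stricter cell filter, described with the NF-kB genes, 128 were higher and 20 lower of 4872 genes, and 115 and 3 of these were among the 297 and 122. The ratio of the lower of the 2 to the highest quiet population is called the gap below. It was 2 to 4 for 178 of the higher genes, 4 to 8 for 76, 8 to 16 for 23 and 16 or more for 20. Of the lower genes, 2 reached 4-fold. The higher genes held 7.72% and 7.10% of all UMIs in HTO2+HTO8 and HTO2+HTO9, against 0.873% to 1.14% in quiet populations. The median log2 ratio over all genes counted was -0.24 (the midpoint of the 2 populations over the median of the quiet ones), so list medians below are to be read against that value and not against 0. List calls are likewise to be read against the 2.72% and 1.12% of all genes. The lists were chosen with earlier results of these data known, so their counts describe the lists and support nothing. Without any minimum fold, 10.9% of genes were above all 5 quiet populations in both, and 32.5% were below all 5. With TMM scaling these shares were 19.1% and 17.4%, so the lean toward lower depends on the scaling. Counts of list members above or below all quiet populations are to be read against these shares.

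**Figure D1:**
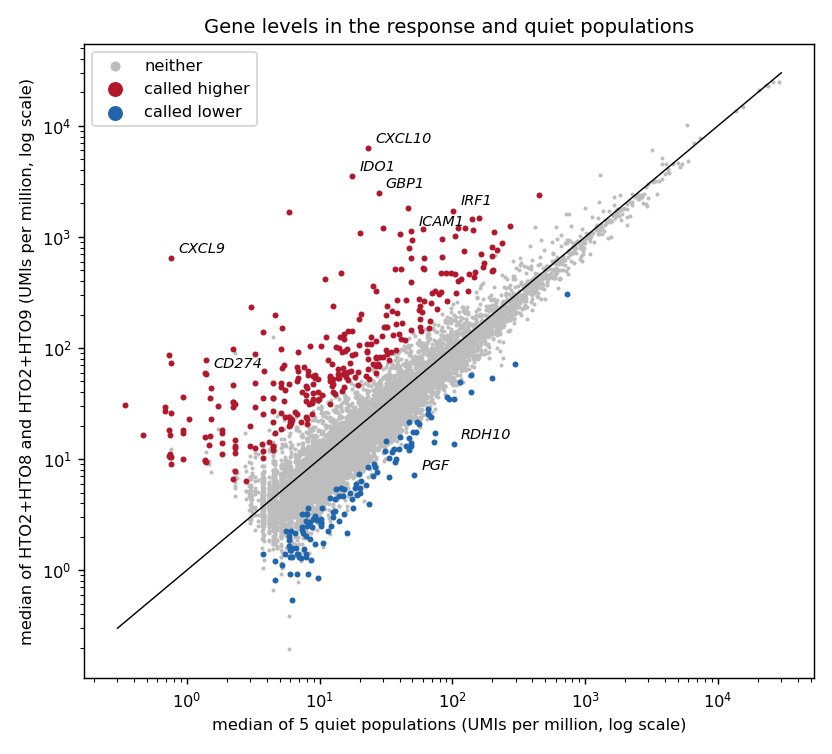
Each point is 1 gene, at its median level in the 5 quiet populations (x axis) and the midpoint of HTO2+HTO8 and HTO2+HTO9 (y axis), both in CPM on log scales; red marks the 297 genes called higher and blue the 122 called lower, and the line marks equality. Higher genes reach far from the line, up to CXCL10, while lower genes stay closer to it, as for RDH10 and PGF, which are named; 10 genes with a median of 0 on an axis are not drawn.

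The 5 genes that mark the 2 populations were high in both and low in all quiet ones. CXCL10 (ENSG00000169245, GENCODE 29, chromosome 4, 76021117 to 76023497, minus strand) was at 6086 CPM (5974 to 6200) in HTO2+HTO8 and 6480 CPM (6382 to 6579) in HTO2+HTO9, against 28.3, 21.4, 29.8, 23.2 and 18.9 CPM in the quiet populations. The gap was 204-fold (150 to 286). It encodes a ligand of CXCR3, the receptor that brings activated T cells into inflamed tissue, and its level was the most even of the 5 genes between the 2 populations. CXCL9, a second CXCR3 ligand, was at 821 and 470 CPM, against 0.766, 2.95, 2.23, 0.464 and 0.687 CPM, which rest on 1 to 4 UMIs each. CXCL11, the remaining ligand, was at 2023 and 1352 CPM, against 9.19, 5.89, 20.9, 5.10 and 4.12 CPM. All 3 ligand genes lie side by side on chromosome 4, and the groups were far from overlapping for each. IDO1, which starts the breakdown of tryptophan, was at 4494 and 2528 CPM, against 17.6, 14.0, 31.3, 19.9 and 14.8 CPM. GBP1, an interferon-induced GTPase that acts against intracellular pathogens, was at 2580 and 2344 CPM, against 22.2, 17.7, 31.3, 27.8 and 31.6 CPM. The gaps were 160-fold for CXCL9 (62.1 to 586), 80.8-fold for IDO1, 74.2-fold for GBP1 and 64.8-fold for CXCL11. HTO2+HTO8 was higher than HTO2+HTO9 for CXCL9 (1.75-fold, 1.62 to 1.89), IDO1 (1.78-fold, 1.72 to 1.84) and CXCL11 (1.497-fold, 1.43 to 1.57). Summed, the 5 genes came to 16005 and 13174 CPM, against 61.9 to 115 CPM.

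**Figure D2:**
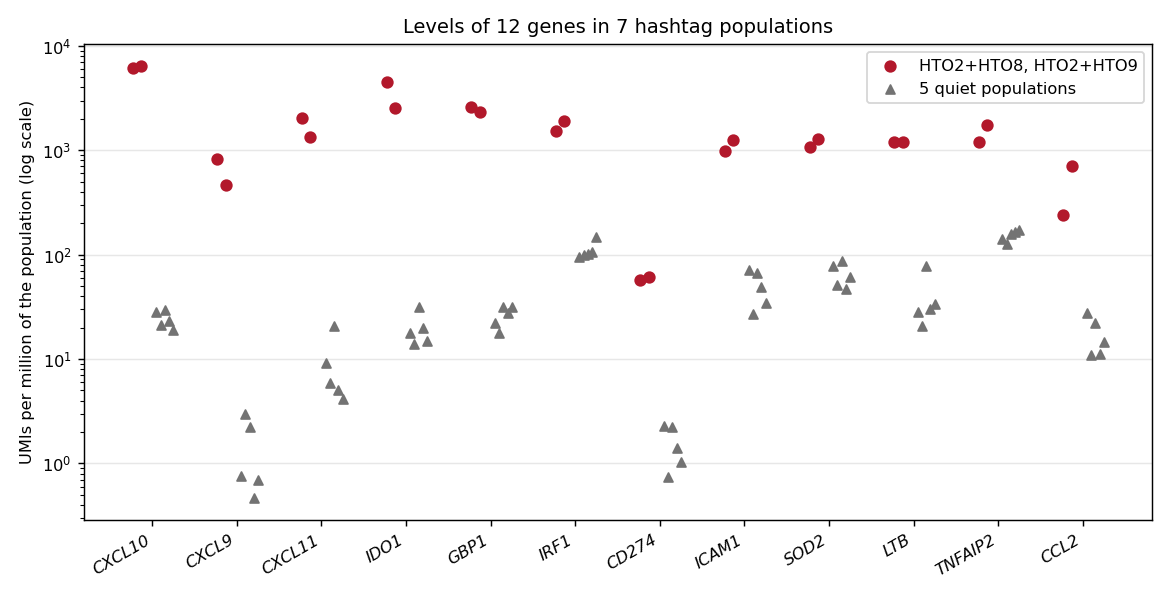
Levels of 12 genes in CPM (log y axis); red circles are HTO2+HTO8 (left) and HTO2+HTO9 (right), and grey triangles are the 5 quiet populations. For each of the 12 genes both red circles lie above all 5 triangles, most widely for CXCL9 and CXCL10.

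Most receptor and kinase genes of the pathway differed by less than the 2-fold set for a call, while several factors downstream differed by more. All 7 genes of receptors and kinases were above all quiet populations in both, yet 2 of 7 were called: JAK2, the kinase of IFNGR2, at 63.2 and 59.7 CPM, against 3.68 to 13.4 CPM, and IFNAR2, a chain of the type I interferon receptor, at 45.4 and 58.2 CPM, against 9.19 to 21.98 CPM. IFNGR1 was at 50.8 and 61.7 CPM, against 29.2 to 41.2 CPM, and JAK1 at 177 and 186 CPM, against 91.6 to 112 CPM. IFNGR1 and JAK1 thus lay above the quiet range without reaching the call. Of the 12 STAT and IRF genes with 50 or more UMIs (16 listed), 6 were called higher and 0 lower, with a median log2 ratio of 1.76.

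IRF1 had the second widest gap of that list. It was at 1515 and 1917 CPM, against 94.9, 99.4, 101, 105 and 148 CPM in quiet populations, a gap of 10.2-fold (9.23 to 11.3). Both populations stood far above every quiet one. ETV7, a repressor of interferon-stimulated genes, was at 142 and 134 CPM, against 2.30 to 7.56 CPM, and BATF2, a factor that works with IRF1, was at 119 and 134 CPM, against 11.05 to 14.8 CPM. STAT2 (102 and 72.2 CPM, against 16.1 to 21.4 CPM) and IRF8 (10.8 and 9.31 CPM, against 0 to 2.23 CPM) were also called. STAT3, which carries interleukin 6 signals, was at 133 and 147 CPM, against 68.1 to 82.7 CPM, and IRF7 at 138 and 96.6 CPM, against 50.5 to 89.3 CPM, and neither was called. Among 7 feedback genes, 2 were called. SOCS1, which inhibits JAK kinases, was at 94.6 and 105 CPM, against 7.66 to 16.7 CPM, and USP18, which removes the ISG15 modifier, at 48.1 and 38.8 CPM, against 5.96 to 13.7 CPM. SOCS3 was at 31.9 and 25.6 CPM, against 14.7 to 18.4 CPM, and the phosphatase gene PTPN1 at 116 and 127.6 CPM, against 128.1 to 157 CPM, just below the quiet range. With TMM scaling 0 of the 7 feedback genes were below all quiet populations.

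All 5 guanylate-binding protein genes with 50 or more UMIs outside the markers were called higher, with a median log2 ratio of 4.99. GBP4 was at 1128 and 1057 CPM, against 15.3 to 27.98 CPM, a gap of 37.8-fold (27.5 to 53.5). GBP2 was at 1043 and 831 CPM, against 47.1 to 55.6 CPM, and GBP3 at 811 and 775 CPM, against 40.2 to 50.1 CPM. These proteins build coats on vacuoles and bacteria. GBP5 was at 82.2 and 57.8 CPM, against 0, 0, 0, 0.927 and 1.72 CPM, and GBP7 at 88.6 and 67.1 CPM, against 0.687 to 2.95 CPM. Genes of this family resemble each other, so that their single values are uncertain.

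Genes induced by type I interferons as well as by interferon gamma were also higher, but from quiet levels that were often already substantial. Of 42 such genes, 24 were called higher, 0 lower and 18 neither, 39 were above all quiet populations in both, and the median log2 ratio was 1.99. EPSTI1 (410 and 309 CPM, against 16.8 to 39.8 CPM), IFIH1, a sensor of double-stranded RNA (557 and 476 CPM, against 36.8 to 65.9 CPM), and CMPK2 (50.8 and 46.9 CPM, against 0 to 6.53 CPM) had the widest gaps, 7.76-fold, 7.22-fold and 7.19-fold. ISG15, a ubiquitin-like modifier, was at 3952 and 3335 CPM, against 861, 1290, 815, 1540 and 1899 CPM, and did not reach the call. IFI27 was at 5666 and 4569 CPM, against 2448 to 5138 CPM, so HTO2+HTO9 lay within the quiet range. IFITM3, a membrane protein that blocks virus entry, was at 2465 and 2124 CPM, against 1509 to 1896 CPM. HTO4+HTO7 was the highest quiet population for ISG15 and IFITM3, and HTO4+HTO6 for IFI27.

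Antigen presentation genes were higher in both populations, class II by more than class I. Of 13 MHC class II genes with 50 or more UMIs (14 listed), 13 were called higher, with a median log2 ratio of 3.51. CIITA, the factor that switches class II genes on, was at 105 and 68.7 CPM, against 0, 0.736, 2.23, 0.464 and 1.03 CPM. CD74, the invariant chain, was at 1088 and 816 CPM, against 75.04, 78.1, 104, 95.5 and 83.8 CPM. HLA-DRA, the chain common to HLA-DR molecules, was at 287 and 187 CPM, against 9.19, 5.89, 14.2, 13.9 and 12.7 CPM, a gap of 13.2-fold (8.37 to 22.1). HTO2+HTO8 exceeded HTO2+HTO9 for CD74 (1.33-fold, 1.25 to 1.42) and HLA-DRA (1.53-fold, 1.35 to 1.74), and both stood well above the quiet range. CTSS, a protease that trims the invariant chain, was at 116 and 81.1 CPM, against 3.71 to 6.13 CPM.

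Of 19 MHC class I genes, 9 were called higher and 0 lower, all 19 were above every quiet population, and the median log2 ratio was 1.32. TAP1, a chain of the peptide transporter, was at 538 and 486 CPM, against 24.3 to 46.4 CPM, a gap of 10.5-fold (8.77 to 12.6). NLRC5, the class I counterpart of CIITA, was at 36.8 and 34.1 CPM, against 2.95 to 5.36 CPM, and PSMB9, an immunoproteasome subunit, at 1358 and 869 CPM, against 162 to 261 CPM. B2M, the light chain, was high everywhere and missed the call. It was at 6643 and 5530 CPM, against 2871, 3202, 2823, 3782 and 3934 CPM. HLA genes resemble each other closely and their single values are uncertain. In the tryptophan list, WARS, the tryptophanyl-tRNA synthetase, was at 1197 and 922 CPM, against 36.8 to 43.9 CPM (21.0-fold, 16.2 to 27.6), and KYNU, a later enzyme of the kynurenine route, at 16.2 and 10.5 CPM, against 0.343 to 2.78 CPM.

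NF-kB genes, the second kind by which the 2 populations were chosen, were higher by smaller factors. Of 17 genes of subunits and inhibitors (18 listed), 7 were called higher and 0 lower, 14 were above all quiet populations, and the median log2 ratio was 1.26. The list summed to 1782 and 2255 CPM, against 564, 500, 574, 534 and 608 CPM, a gap of 2.93-fold. NFKBIA, the inhibitor that NF-kB induces to shut itself off, was at 506 and 666 CPM, against 178, 150, 172, 159 and 221 CPM, a gap of 2.29-fold (2.07 to 2.54). TNFAIP3, a ubiquitin-editing enzyme of the same feedback, was at 58.4 and 64.8 CPM, against 10.7, 5.15, 8.19, 4.64 and 8.93 CPM. TNIP1, a partner of TNFAIP3, was at 590 and 736 CPM, against 75.9 to 95.3 CPM, a gap of 6.19-fold, the widest of the list. All 3 inhibitors lay above every quiet population in both. RELB, a subunit, was called (84.3 and 90.8 CPM, against 13.3 to 20.6 CPM) and so was NFKB2 (48.1 and 62.5 CPM, against 15.5 to 22.2 CPM). RELA was at 78.4 and 100 CPM, against 32.4 to 44.4 CPM, NFKB1 at 80.5 and 126 CPM, against 39.0 to 48.6 CPM, and REL at 15.7 and 36.1 CPM, against 25.4 to 34.3 CPM, and none of these 3 was called. Under a stricter cell filter (a floor of 1000 genes and a ceiling of 10% mitochondrial UMIs), which left 12 and 37 cells, against 14 to 36, the gap of the summed list was 1.79-fold and that of NFKBIA 1.27-fold, which ends its call.

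Of 17 TNF survival and signalling genes, 7 were called higher and 0 lower, with a median log2 ratio of 1.29. SOD2, the mitochondrial superoxide dismutase, was at 1071 and 1297 CPM, against 78.1, 50.8, 87.9, 47.3 and 60.4 CPM, a gap of 12.2-fold (10.1 to 14.8). TNFAIP2 was at 1194 and 1753 CPM, against 126 to 172 CPM, and BIRC3, an inhibitor of apoptosis, at 334 and 308 CPM, against 56.0 to 109 CPM. BCL2A1, a survival factor of the BCL2 family, was at 17.3 and 36.5 CPM, against 0 to 1.53 CPM. IER3, another TNF target in many cells, went the other way without being called, at 209 and 189 CPM, against 447, 252, 338, 281 and 326 CPM. Members of this list thus lay on both sides of the quiet range.

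Chemokines other than the CXCR3 ligands, most of which signal through CXCR2 or CCR receptors, were partly uneven between the 2 populations. Of 12 with 50 or more UMIs (18 listed), 6 were called higher and 0 lower, with a median log2 ratio of 2.72. CCL2, which attracts monocytes, was at 238 and 701 CPM, against 27.6, 11.05, 22.3, 11.1 and 14.4 CPM, and was 2.95-fold (2.65 to 3.28) higher in HTO2+HTO9 than in HTO2+HTO8. CXCL8, which attracts neutrophils, was at 28.1 and 79.5 CPM, against 9.19, 5.89, 9.68, 3.25 and 6.87 CPM, with a gap of 2.90-fold (1.56 to 5.81). CCL5, which attracts T cells and monocytes, was at 78.9 and 66.3 CPM, against 0.766, 0, 0.745, 1.39 and 1.37 CPM, and CX3CL1, a membrane-bound chemokine, at 78.4 and 119 CPM, against 1.37 to 4.64 CPM. For CCL5 and CX3CL1 both populations stood far above every quiet one. Of other CXCR2 ligands, CXCL1 was at 37.3 and 69.4 CPM, against 6.03 to 33.5 CPM, above all quiet populations but not called, and CXCL2 was at 14.6 and 33.4 CPM, against 6.03 to 18.6 CPM, so HTO2+HTO8 lay within the quiet range.

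Among 12 interleukin and growth factor genes with 50 or more UMIs (21 listed), 6 were called higher and 0 lower, with a median log2 ratio of 1.17. IL32, a cytokine that induces TNF in other cells, was at 2198 and 1473 CPM, against 66.6, 28.7, 87.9, 43.6 and 46.7 CPM, a gap of 16.8-fold (13.9 to 20.3). IL18BP, which captures interleukin 18, was at 178 and 123 CPM, against 3.68 to 6.49 CPM. IL15 and its presenting receptor IL15RA, which sustain natural killer and memory T cells, were both called, at 37.8 and 56.3 CPM, against 9.19 to 14.4 CPM, and at 123 and 116 CPM, against 13.3 to 22.3 CPM. IL18 itself was at 39.5 and 59.7 CPM, against 89.98 to 108 CPM, below all quiet populations without reaching the call. Of 4 TNF superfamily ligands with enough UMIs, 3 were called. LTB, lymphotoxin beta, was at 1205 and 1204 CPM, against 28.3, 20.6, 78.2, 30.1 and 33.7 CPM, TNFSF10, the death ligand TRAIL, at 1504 and 1383 CPM, against 89.4 to 200 CPM, and TNFSF13B, a B cell survival factor, at 474 and 357 CPM, against 4.59 to 20.6 CPM. LTB was level between the 2 populations (1.00-fold, 0.948 to 1.06).

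Of 12 TNF receptor superfamily genes, 4 were called higher and 0 lower, with a median log2 ratio of 1.00. TNFRSF1A, the receptor that starts the TNF response in most cells, was at 70.3 and 74.9 CPM, against 68.6 to 94.999 CPM, so the groups overlapped. TNFRSF1B, the second TNF receptor, was at 44.9 and 45.4 CPM, against 10.3 to 14.4 CPM, FAS, a death receptor, at 33.5 and 33.4 CPM, against 2.75 to 6.63 CPM, and CD40 at 114 and 68.7 CPM, against 14.0 to 23.1 CPM. The death receptor genes TNFRSF10A and TNFRSF10B were not called.

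Adhesion and checkpoint genes that differed did so widely. Of 11 with enough UMIs, 4 were called higher and 0 lower, with a median log2 ratio of 0.65. ICAM1, the ligand of leukocyte integrin LFA-1, was at 987 and 1261 CPM, against 71.2, 27.2, 66.3, 49.2 and 34.7 CPM, a gap of 13.9-fold (11.3 to 17.3). VCAM1 was at 393 and 391 CPM, against 30.9 to 65.8 CPM. CD274, the gene of the T cell inhibitor PD-L1, was at 57.3 and 60.5 CPM, against 2.30, 0.736, 2.23, 1.39 and 1.03 CPM, each of these on 1 to 3 UMIs. CD47, which restrains phagocytosis, was at 349 and 274 CPM, against 64.3 to 92.4 CPM, while CD276, NECTIN2 and ICAM2 were not called.

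Of 14 caspase, lytic death and APOL genes, 7 were called higher and 0 lower, with a median log2 ratio of 1.54. CASP1, the inflammatory caspase, was at 58.9 and 55.1 CPM, against 3.83 to 9.74 CPM, and CASP8, which starts death receptor apoptosis, at 187 and 165 CPM, against 52.1 to 69.3 CPM. APOL6 was at 477 and 470 CPM, against 66.6 to 98.8 CPM. GSDMD, the pore former of pyroptosis, was at 231 and 210 CPM, against 104 to 132 CPM, and MLKL, that of necroptosis, at 43.2 and 29.1 CPM, against 10.4 to 14.7 CPM, both short of the call. Of 17 complement and acute phase genes, 8 were called higher and 0 lower, with a median log2 ratio of 1.07. C1S, a complement protease, was at 43.2 and 28.3 CPM, against 1.03 to 2.32 CPM, CFB, factor B, at 474 and 478 CPM, against 70.0 to 121 CPM, and C3 at 130 and 135 CPM, against 29.9 to 48.2 CPM. SAA1 (1171 and 1215 CPM, against 50.8 to 201 CPM) and SAA2 (636 and 666 CPM, against 17.7 to 69.3 CPM) are near-identical copies whose single values are uncertain. Complement regulators of the cell surface were not part of this: CD46 was at 123 and 123 CPM, against 139 to 197 CPM, and CD59 at 284 and 327 CPM, against 269 to 332 CPM.

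Of the 297 higher genes, 121 were on a list and 176 were not. HAPLN3, a matrix link protein, had the widest gap outside the lists, at 267 and 204 CPM, against 3.06, 2.95, 2.23, 3.71 and 5.15 CPM (39.5-fold, 23.8 to 71.2). GCH1, which starts the synthesis of tetrahydrobiopterin, was at 40.0 and 78.8 CPM, against 0.766 to 2.23 CPM, XDH, xanthine dehydrogenase, at 34.05 and 62.9 CPM, against 1.49 to 4.12 CPM, and IL4I1, an amino acid oxidase, at 37.3 and 34.5 CPM, against 0.745 to 1.72 CPM. Several of these encode enzymes of small-molecule metabolism. CHI3L2 was at 42.7 and 60.5 CPM, against 0, 0, 0.745, 0 and 1.03 CPM, and UBD, the ubiquitin-like modifier FAT10, at 35.7 and 25.2 CPM, against 0 to 0.766 CPM. LAP3, an aminopeptidase, was at 742 and 538 CPM, against 42.5 to 67.3 CPM, NINJ1, which ruptures the membrane of dying cells, at 499 and 535 CPM, against 44.9 to 69.7 CPM, and DRAM1, a p53 target of the lysosome, at 214 and 192 CPM, against 17.6 to 21.4 CPM.

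The lower genes were less different and less stable than the higher ones. RDH10, which makes retinal from retinol, was at 10.8 and 16.3 CPM, against 103, 93.5, 90.9, 123 and 115 CPM, so that the lowest quiet population was 5.58-fold (3.90 to 8.12) above the higher of the 2. PGF, placental growth factor, was at 6.49 and 7.76 CPM, against 51.3, 35.3, 58.1, 55.6 and 43.3 CPM, with 4.56-fold (2.65 to 8.10). These are the only 2 at 4-fold or more under the main settings. ARHGAP18, a regulator of RhoA, was at 51.9 and 56.3 CPM, against 188 to 224 CPM, ANGPTL4, an inhibitor of lipoprotein lipase, at 12.97 and 15.5 CPM, against 47.5 to 93.8 CPM, and WFS1, a protein of the endoplasmic reticulum, at 5.95 and 5.82 CPM, against 21.3 to 34.5 CPM. AHNAK2 was at 38.4 and 41.1 CPM, against 120 to 165 CPM, and EVPL, envoplakin of the cornified envelope, at 2.16 and 4.27 CPM, against 14.0 to 21.4 CPM. Of 335 listed genes counted, 4 were among the 122 (1.19%, beside 1.12% of all genes). They were SLC2A1, the glucose transporter GLUT1, at 25.4 and 22.9 CPM, against 59.4 to 75.1 CPM, the keratin gene KRT19, at 303 and 312 CPM, against 650 to 1132 CPM, CLDN3, a tight junction protein, at 28.1 and 28.7 CPM, against 61.9 to 71.4 CPM, and the endothelial marker PECAM1. TMM scaling kept 55 of the 122 calls but 0 of these 4 listed genes. The stricter cell filter, which leaves 12 to 37 cells a population, kept 3 of the 122.

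The 6 lists outside the cytokine responses had 1 gene called higher and 3 called lower of 99 counted (1.01% and 3.03%, beside 2.72% and 1.12% of all genes). The 3 lower calls were in the hypoxia list and the epithelial and keratin list, and TMM scaling left 0 lower calls in each. Of 20 G2 and mitosis genes and 20 DNA replication genes, 0 were called in either direction, while 13 and 15 were below all quiet populations, beside the 32.5% of all genes given above. Their median log2 ratios were -0.95 and -1.05, beside -0.24 over all genes. With TMM scaling these counts were 6 and 10 of 20, beside 17.4% of all genes, and the medians -0.72 and -0.83. MCM6, a subunit of the replicative helicase, was at 4.86 and 9.70 CPM, against 17.6 to 30.1 CPM, and CENPF, a kinetochore protein, at 73.0 and 86.9 CPM, against 123 to 243 CPM. TOP2A was at 164 and 105 CPM, against 144 to 323 CPM, so HTO2+HTO8 lay within the quiet range. Hypoxia genes (16 counted) had 0 higher and 1 lower, with a median log2 ratio of -0.26, close to that of all genes, and LDHA was at 659 and 681 CPM, against 915 to 1302 CPM. Epithelial and keratin genes (19 counted) had 0 higher and 2 lower, with a median of -0.32. Of the 19, 7 were below all quiet populations and 3 above all. The list summed to 4387 and 4738 CPM, against 6010 to 8519 CPM. With TMM scaling the 2 populations were at 4998 and 5175 CPM, against 5707 to 8071 CPM, so the sum was below every quiet population under both scalings. EPCAM was at 265 and 264 CPM, against 246 to 369 CPM, within the quiet range. Immediate early genes (13 counted) had 1 higher, the stress factor gene ATF3 (47.6 and 58.2 CPM, against 8.35 to 16.9 CPM), with a median of 0.51, and FOS was at 426 and 460 CPM, against 224 to 388 CPM. Of 11 p53 targets 0 were called.

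**Figure D3:**
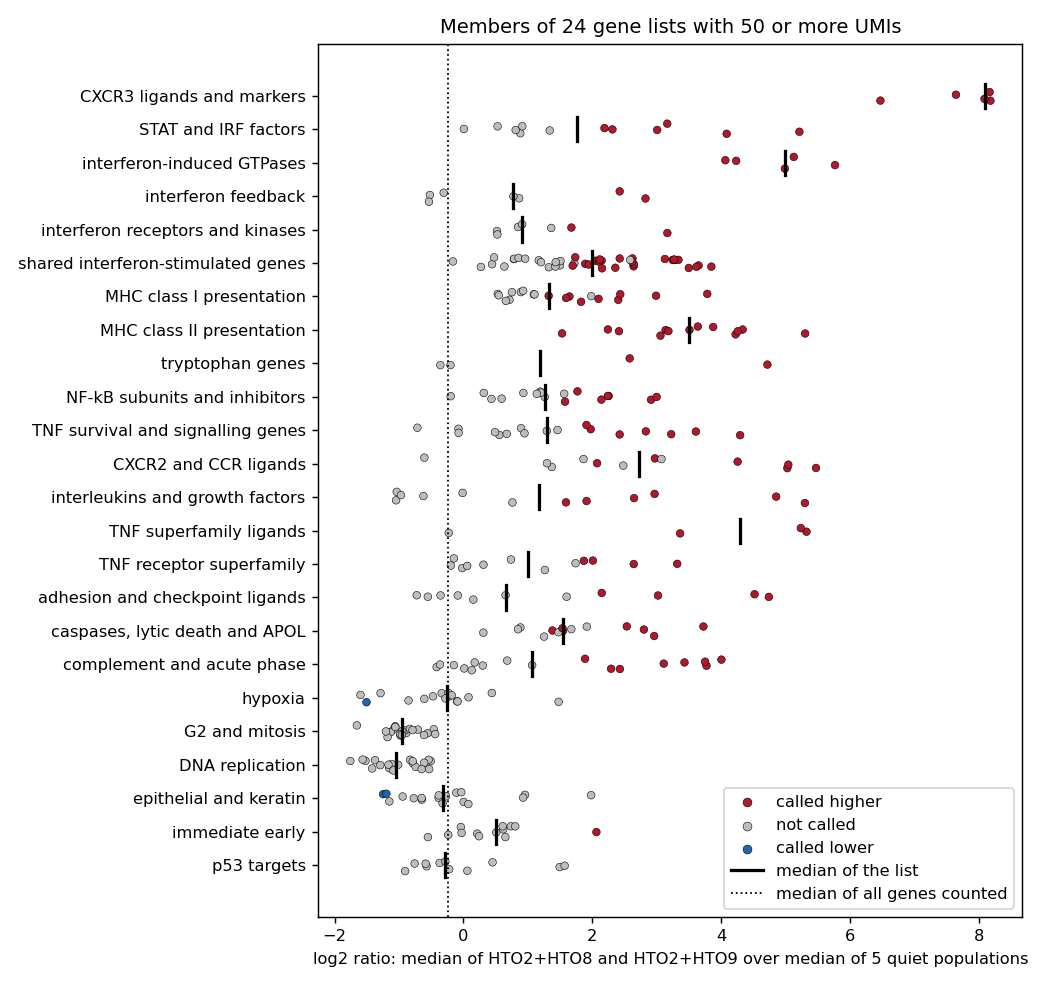
Each point is a member of 1 of 24 gene lists, at its log2 ratio of HTO2+HTO8 and HTO2+HTO9 (midpoint) over the median of the 5 quiet populations (x axis); red marks genes called higher, blue lower, grey neither, thick bars the list medians and the dotted line the median of all genes counted (-0.24). The medians of the interferon and TNF lists lie right of the dotted line, while those of mitosis and replication genes lie left of it, at -0.95 and -1.05.

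HTO2+HTO8 and HTO2+HTO9 were close to each other in most genes. Of 5011 genes with 100 or more UMIs over both, 94.4% were within 1.5-fold, 8 were 2-fold or more higher in HTO2+HTO8 and 29 in HTO2+HTO9. Of the 245 higher genes with as many UMIs, 210 were within 1.5-fold. The gene with the widest ratio was MSMP, which encodes a secreted microseminoprotein, at 248 CPM in HTO2+HTO8 and 5.43 CPM in HTO2+HTO9, and it was also at 177 CPM in quiet HTO4+HTO6 and at 3.83 to 7.36 CPM in the other quiet populations. Its pattern therefore crossed the groups. DKK1, a Wnt inhibitor, was at 82.7 CPM in HTO2+HTO8 and 23.3 CPM in HTO2+HTO9, against 9.95 to 29.2 CPM in quiet populations, and the transcription factor gene SOX4 was at 498 and 241 CPM, against 136 to 181 CPM. In HTO2+HTO9, PAEP, glycodelin, was at 59.7 CPM, against 10.3 CPM in HTO2+HTO8, S100A2 at 159 against 35.7 CPM, and KRT81 at 142 against 37.8 CPM. TNFAIP6, a TNF-induced matrix protein, was at 40.7 against 10.3 CPM, and at 0 in 4 quiet populations and 0.766 CPM in HTO3+HTO5. Apart from CCL2, TNFAIP6, S100A14 and HLA-DMB, the 16 genes named by this ratio were not called higher against the quiet populations.

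The response was present in most cells of both populations. To compare shares at equal depth, each cell was thinned to 4000 UMIs, which left 179 and 233 cells (6 and 8 shallower cells left out), against 129 to 273 cells in quiet populations (4 to 11 left out). A CXCL10 UMI was present in 94.97% (90.7 to 97.7) of HTO2+HTO8 cells and 90.1% (85.6 to 93.6) of HTO2+HTO9 cells, against 6.19% to 13.4% in quiet populations (97.8% and 91.3%, against 16.5% to 21.9%, before thinning). RNA free in the droplets can place UMIs in cells that do not express a gene, and the quiet shares, from the same droplet run, include any such background. Of the 5 marker genes, 3 or more were present in 94.97% and 84.5% of cells, against 0% to 1.03%, and all 5 in 63.1% and 37.8%, against 0 cells. A cell without any of the 5 was rare, at 1 and 5 cells (0.559% and 2.15%), against 70.4% to 78.5% of quiet cells. The median cell had 63 and 51 UMIs of the 5 genes, against 0. HTO2+HTO9 had the longer low tail: its 10th percentile was 2.20 UMIs, against 17.8 in HTO2+HTO8. The lower CXCL9, CXCL11 and IDO1 sums of HTO2+HTO9 went with fewer positive cells and with fewer UMIs in the median cell. A CXCL9 UMI was present in 41.6% of HTO2+HTO9 cells and 65.9% of HTO2+HTO8 cells. For IDO1 these shares were 83.3% and 94.97%, and the median cell had 8 and 18 UMIs. For CXCL11 the median cell had 4 and 8 UMIs. CXCL10 also had fewer positive cells in HTO2+HTO9, yet its mean was 25.4 UMIs per thinned cell in both.

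Genes of the TNF route were found in the same cells. ICAM1 UMIs were present in 91.1% and 93.1% of cells, against 9.63% to 27.9%, and SOD2 UMIs in 93.3% and 93.1%, against 17.0% to 24.6%. Both CXCL10 and ICAM1 were present in 88.3% and 85.8% of cells, against 1.03% to 4.23%. As each of these genes was in most cells, a high joint share follows whether or not their levels go together. LTB was present in 66.5% and 68.7% of cells, with up to 46 and 44 UMIs in 1 cell, and CCL2 in 40.2% and 46.4%, with up to 19 and 59 UMIs in 1 cell. For CCL2 the variance over the mean was 5.45 and 15.6, where sampling alone gives a value near 1. CD274 was present in 23.5% and 16.3% of cells, against 0% to 0.741%, and CIITA in 35.8% and 23.2%, against the same range. The 18 NF-kB genes had a median of 7 and 9 UMIs per cell, against 2 in each quiet population. Over cells thinned to one depth, the UMIs of the 5 markers and of the NF-kB genes had r = 0.370 and 0.415 (179 and 233 cells of 1 library), against -0.014 to 0.053 in quiet populations, where the markers were mostly at 0.

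**Figure D4:**
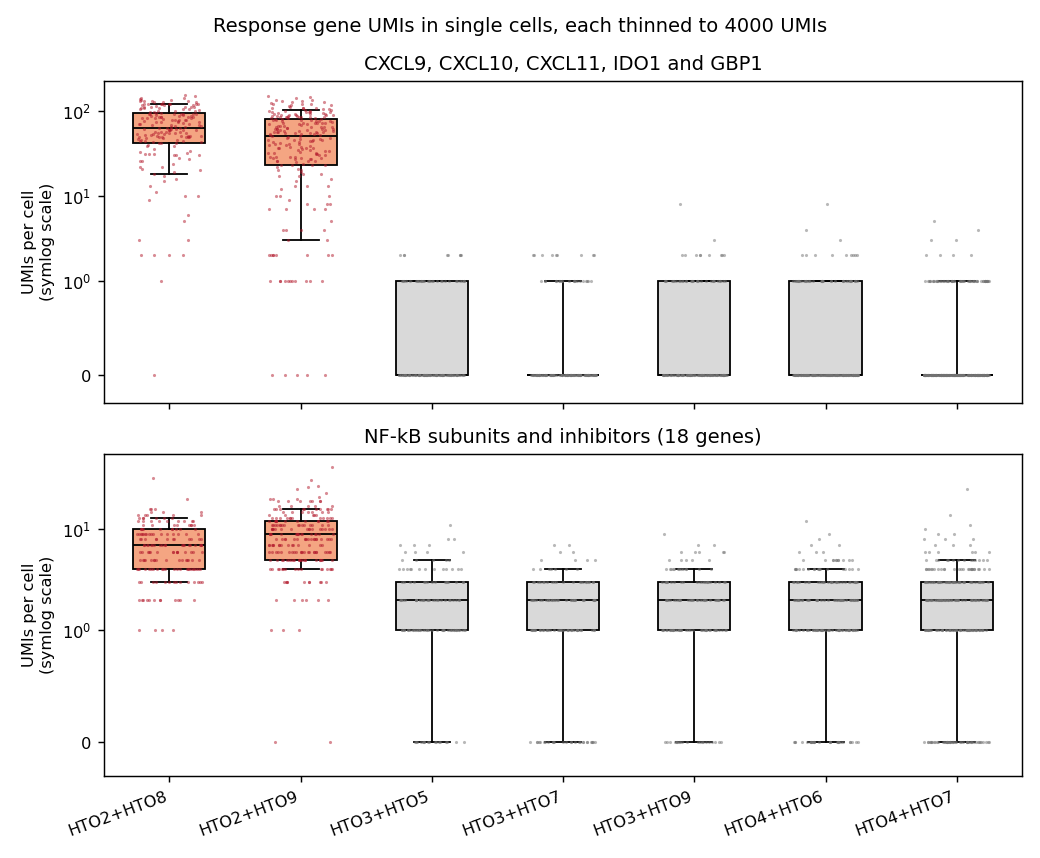
UMIs per cell after thinning each cell to 4000 UMIs, on symmetric log axes, for CXCL9, CXCL10, CXCL11, IDO1 and GBP1 summed (top) and for 18 NF-kB genes summed (bottom); boxes span the quartiles with the median, whiskers the 10th to 90th percentile, and points are cells. Medians are 63 and 51 UMIs in HTO2+HTO8 and HTO2+HTO9, against 0 in each quiet population, in the top panel, and 7 and 9, against 2, in the bottom panel, where the cells of the groups overlap.

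Both populations carry HTO2 and no quiet population does, so what comes with that hashtag and the response cannot be told apart among these 7 alone. The other populations are therefore given side by side, with no test. HTO2+HTO5, HTO2+HTO6 and HTO2+HTO7, which also carry HTO2, had 217, 634 and 577 CPM of the 5 markers summed, against 13174 CPM or more in HTO2+HTO8 and HTO2+HTO9. HTO4+HTO8 and HTO4+HTO9, which share the second hashtag, had 2421 and 3041 CPM, and HTO3+HTO6 had 118 CPM. The marker level of HTO2+HTO8 and HTO2+HTO9 was thus not reached in populations that share one of their hashtags. The NF-kB list had a different order: it summed to 1782 and 2255 CPM in HTO2+HTO8 and HTO2+HTO9, 2849 and 2198 CPM in HTO2+HTO6 and HTO2+HTO7, 822 CPM in HTO2+HTO5, 614 and 667 CPM in HTO4+HTO8 and HTO4+HTO9, and 487 CPM in HTO3+HTO6. Interferon receptor and kinase genes summed to 504 and 567 CPM in HTO2+HTO8 and HTO2+HTO9, below the 661 and 609 CPM of HTO2+HTO6 and HTO2+HTO7. In HTO4+HTO8 and HTO4+HTO9 they summed to 299 and 264 CPM, beside 265 to 306 CPM in quiet populations. MHC class II genes had yet another order, with 2162 and 1523 CPM in HTO2+HTO8 and HTO2+HTO9 and 5019 and 5404 CPM in HTO4+HTO8 and HTO4+HTO9. MHC class I genes were also higher in HTO4+HTO8 and HTO4+HTO9, at 27448 and 27545 CPM, beside 19420 and 15947 CPM. Genes induced by both types of interferon summed to 24115 and 23608 CPM there, beside 24685 and 20899 CPM in HTO2+HTO8 and HTO2+HTO9.

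Single genes followed one or another of these orders. ICAM1 was at 987 and 1261 CPM in HTO2+HTO8 and HTO2+HTO9, 903 and 882 CPM in HTO2+HTO6 and HTO2+HTO7, and 146 and 212 CPM in HTO4+HTO8 and HTO4+HTO9. GBP5 was at 82.2 and 57.8 CPM in HTO2+HTO8 and HTO2+HTO9, 3.27 and 2.25 CPM in HTO2+HTO6 and HTO2+HTO7, and 80.8 and 116 CPM in HTO4+HTO8 and HTO4+HTO9. ICAM1 and GBP5 thus had opposite orders over these other populations. Some genes, chosen here after their values were seen, were lower in all 4 of them than in HTO2+HTO8 and HTO2+HTO9. CXCL9 was at 821 and 470 CPM in HTO2+HTO8 and HTO2+HTO9, 1.91 and 1.40 CPM in HTO2+HTO6 and HTO2+HTO7, and 25.6 and 11.8 CPM in HTO4+HTO8 and HTO4+HTO9. HAPLN3 was at 267 and 204 CPM, beside 17.996 and 10.7 CPM and 32.3 and 36.6 CPM in the same order, BATF3, a transcription factor, at 35.7 and 29.1 CPM, beside 4.64 and 5.62 CPM and 2.02 and 2.61 CPM, and GCH1 at 40.0 and 78.8 CPM, beside 8.998 and 8.42 CPM and 10.1 and 14.4 CPM. CXCL8 was at 28.1 and 79.5 CPM in HTO2+HTO8 and HTO2+HTO9, below its 264 and 219 CPM in HTO2+HTO6 and HTO2+HTO7, and TNFAIP3 was at 58.4 and 64.8 CPM, below 144 and 92.4 CPM. RDH10 was at 10.8 and 16.3 CPM in HTO2+HTO8 and HTO2+HTO9, 31.6 and 46.6 CPM in HTO2+HTO6 and HTO2+HTO7, 121 and 66.6 CPM in HTO4+HTO8 and HTO4+HTO9, and 90.9 CPM or more in quiet populations.

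**Figure D5:**
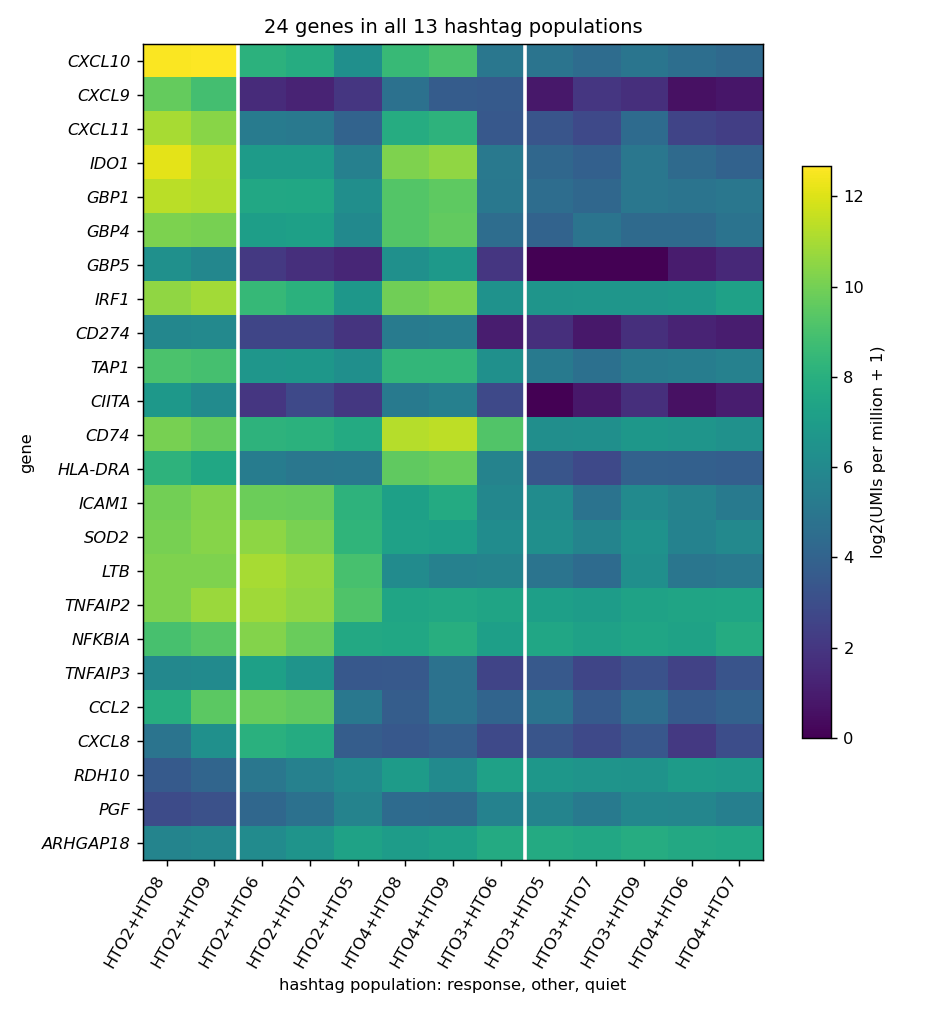
Levels of 24 genes as log2(CPM + 1), by colour, in all 13 hashtag populations: HTO2+HTO8 and HTO2+HTO9 at the left, the 6 other populations in the middle and the 5 quiet ones at the right of the white lines. CXCL9, CXCL10 and CXCL11 are brightest in the 2 columns at the left, ICAM1, SOD2 and LTB are as bright in HTO2+HTO6 and HTO2+HTO7, and CD74 and HLA-DRA are brightest in HTO4+HTO8 and HTO4+HTO9.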

How the data were processed

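The deposited files hold raw UMI counts per gene and cell barcode and hashtag counts for the same barcodes, and per the file headers Cell Ranger 5.0.1 wrote them. A different version, 2.1.1, and the build GRCh38 stand in the submitters' processing notes. The counts were used as the authors deposited them. The sources used here do not name the gene annotation behind the counts. Gene coordinates come from GENCODE 29, in which 34616 identifiers matched. The number of value columns that belong to no sample of the series is 0. Whether replicate tumours came from separate animals is not stated, and pairs of hashtags could not be tied to tumours, so exposed and unexposed tumours were not compared.

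Pairs, cells and calls were defined as given with the results. UMIs were summed per population and divided by the population's total (1306049 to 2911673 UMIs among the 7 compared). For folds, a level under 3 UMIs was set to 3 UMIs in the populations divided by. These were the quiet ones for higher calls and the 2 compared with them for lower calls. For log2 ratios it was done in all 7. The pair rule removes barcodes with a high count of another hashtag, but doublets within a population cannot be seen, and no doublet caller was run. Thinning drew 4000 UMIs per cell. The members and gene lists were chosen with earlier results of these data known. Genes named are the 5 markers, up to 4 members of each list by level and 3 by gap, 20 other higher genes, 15 lower genes, 8 on each side by the ratio between the 2 populations, and family members that did not pass. The code that makes the calls was tested on simulated data, and no result rests on that. Alternatives were other cell and hashtag limits, TMM scaling, other UMI minimums and folds, and leaving out each population. TMM factors of the counts came from edgeR 4.0.16 in R 4.3.3, figures from matplotlib 3.10.9, and all else from pandas 2.3.3, scipy 1.17.1 and numpy 2.4.6 in Python 3.11.15. A few genes of the lists are not reported here.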

Additional observations from a re-analysis of the deposited data

Results flagged for a closer look

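Over 33 measures, the highest or lowest of the 5 quiet populations was set against the others by its gap over the whole range, against Dixon's 95% critical value, which chance passes in about 1 in 20 groups. Summed fibroblast markers were flagged at 39.0 CPM in HTO3+HTO5, against 1.49 to 3.71 CPM in the other quiet populations, and 15 UMIs of COL1A2 and 10 of COL3A1 came from 1 of its cells. Summed neutrophil markers were flagged at 0.464 CPM in HTO4+HTO6, which is 1 UMI of CXCR2, with 0 in the other quiet populations. HTO1, a hashtag not used to define any population, had 0.0324 counts per 1000 hashtag counts in HTO2+HTO9 and 0.0218 in HTO2+HTO8 (10 and 6 counts), against 0 to 0.0170 in quiet populations, and was flagged as a signal outside the hashtags compared. It was not particular to these 2: the 6 other populations had 0 to 0.0284, and HTO2+HTO7, at 0.0284 (7 counts), was above HTO2+HTO8.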

How the results depend on the processing

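No paired analysis was possible because the hashtag populations carry no replicate numbers and no test was made. The 297 higher genes became 128 with 1000 genes and at most 10% mitochondrial UMIs, 486 at 1.5-fold, 119 at 4-fold and 1190 without a minimum fold, and 302 to 335 when 1 population was left out. The 122 lower genes became 20 with that cell filter, 202 without a mitochondrial limit, 55 with TMM scaling, 49 with a minimum of 200 UMIs, 544 at 1.5-fold, 2 at 4-fold, 3549 without a minimum fold and 70 when scaled so that the median gene does not move. Leaving out 1 population gave 128 to 507 lower genes, with 298 without HTO2+HTO8 and 507 without HTO2+HTO9, where only 1 population is left to differ. The ratio of summed interferon markers, 114-fold, was 183-fold with the stricter cell filter, 71.3-fold in barcodes over 20% mitochondrial UMIs, 173-fold with a second hashtag at least 10 times the next, and 114-fold to 169-fold with 1 population left out. The ratio of summed NF-kB subunits and inhibitors, 2.93-fold, was 1.79-fold with the stricter filter, 2.72-fold without a mitochondrial limit, 2.29-fold in barcodes over 20%, 3.49-fold with TMM scaling, 3.36-fold with median scaling, and 2.93-fold to 3.71-fold with 1 population left out. Of the values of single named genes, 3297 stayed within the counting interval of the main value (for 9 genes without one, within 1.5-fold), 522 lay outside it, and 0 called genes came to lie on the opposite side of the quiet range. Under the stricter filter 8 of 88 named higher genes and 13 of 18 named lower genes overlapped the quiet range; the cause was not tested. Median scaling and the removal of cells with immune markers were added after seeing the data. The stricter filter leaves 12 cells of HTO2+HTO8, which limits what its values can show, and 1 library limits all comparisons.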

Other observations

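S100A9, which encodes a calcium-binding protein of neutrophils and stressed epithelium, rested on few cells. It had 211 UMIs in 14 cells of HTO2+HTO8, of which 1 cell held 180, and 729 UMIs in 24 cells of HTO2+HTO9, of which 1 cell held 340. The quiet populations had 6, 1, 3, 53 and 15 UMIs. TRBC2, a T cell receptor constant gene, had 2 UMIs in 1 cell of HTO2+HTO8 and 12 UMIs in 4 cells of HTO2+HTO9, against 0 to 2 UMIs in quiet populations, while CD3E and CD3G were at 0 in all 7.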
